A study of Arabidopsis thaliana with 18 samples.

Results

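The SAUR genes (small auxin up RNA) form a large plant family of short proteins, most of them encoded by a single exon. Members were the 52 SAUR loci of a list chosen by name, out of 33602 loci counted in the root tip section of 7-day-old Arabidopsis thaliana seedlings. Earlier results of these data were known when the list was chosen. All 52 were present in the count files. Another 28 annotated loci carry a SAUR name and are not described. RefSeq gives SAUR68 as the symbol of AT1G29510 and as a synonym of AT1G29490, and both are therefore called by their loci.

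There were 18 libraries in 9 groups of 2. Col-0 (wild-type) seedlings were exposed for 4 h to 100 nM BL (brassinolide, the most active brassinosteroid), 5 µM IAA (indole-3-acetic acid, the main natural auxin), both hormones together (IAA+BL) or a mock solution, and were sequenced at 101 bp. Sequenced at the same length were the untreated bri1-116;bzr1-1D double mutant and untreated bri1-116. BRI1 is the brassinosteroid receptor, and bzr1-1D is a dominant allele of BZR1, a transcription factor of the brassinosteroid pathway. Sequenced at 36 bp were dwf4 given 100 nM BL for 4 h, untreated dwf4 and untreated wild type (WT). DWF4 is an enzyme of brassinosteroid synthesis. With no mock group at 36 bp, BL and its handling cannot be told apart in dwf4, and with no untreated Col-0 group at 101 bp the bri1-116 genotypes were set against mock-treated roots. The labels do not state whether paired libraries had separate cultures behind them, so p-values measure only the spread between these libraries. In whole tissue, fewer cells of a type and less RNA per cell cannot be told apart.

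SAUR transcripts were first found as RNAs that accumulate soon after auxin is given, and many SAUR genes also respond to brassinosteroids and light in shoots. Proteins of the SAUR19 subfamily bind and inhibit clade D phosphatases of the PP2C family. These phosphatases otherwise switch off the plasma membrane proton pumps (AHA proteins), so SAUR activity keeps the pumps working, acidifies the wall and favours cell expansion.

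The upstream windows of 6 members are shown because the results turn on these genes. SAUR66 and AT1G29510, neighbours on chromosome 1, rose with each hormone given alone. SAUR76 rose with IAA and further with both hormones. SAUR4 and SAUR5, neighbours on chromosome 4, and SAUR59 fell with IAA. Each sequence is the 250 bases just before the annotated gene start, written along the gene's strand, from the TAIR10.1 assembly of RefSeq. Capitals mark letters searched on both strands. TGTCTC and the variant TGTCGG are those of auxin response elements. BZR1 is known to bind CACGTG, the variant CGTGTG and also the variant CGTGCG.
SAUR66 (AT1G29500, chr1:10320761-10321010, plus strand): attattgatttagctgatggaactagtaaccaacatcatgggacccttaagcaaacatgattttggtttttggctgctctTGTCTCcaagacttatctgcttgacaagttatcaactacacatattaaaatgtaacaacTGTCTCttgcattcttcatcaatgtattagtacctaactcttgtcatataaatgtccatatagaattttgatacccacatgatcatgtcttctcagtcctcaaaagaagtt
AT1G29510 (chr1:10322173-10322422, plus strand): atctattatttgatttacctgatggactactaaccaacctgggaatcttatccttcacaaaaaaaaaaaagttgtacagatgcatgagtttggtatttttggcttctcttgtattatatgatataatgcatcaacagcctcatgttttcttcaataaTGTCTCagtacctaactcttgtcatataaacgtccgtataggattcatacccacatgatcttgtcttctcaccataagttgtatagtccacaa
SAUR76 (AT5G20820, chr5:7047447-7047696, minus strand): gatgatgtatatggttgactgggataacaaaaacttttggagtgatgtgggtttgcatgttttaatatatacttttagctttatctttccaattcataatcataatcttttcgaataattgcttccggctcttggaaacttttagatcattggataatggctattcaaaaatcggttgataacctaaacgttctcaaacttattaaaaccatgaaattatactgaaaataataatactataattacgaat
SAUR4 (AT4G34800, chr4:16596390-16596639, plus strand): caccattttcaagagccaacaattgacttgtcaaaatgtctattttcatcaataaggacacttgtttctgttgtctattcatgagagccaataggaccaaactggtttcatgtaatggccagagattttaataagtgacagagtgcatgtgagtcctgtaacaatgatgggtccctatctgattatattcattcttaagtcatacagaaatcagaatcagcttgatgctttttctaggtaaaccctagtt
SAUR5 (AT4G34810, chr4:16598708-16598957, plus strand): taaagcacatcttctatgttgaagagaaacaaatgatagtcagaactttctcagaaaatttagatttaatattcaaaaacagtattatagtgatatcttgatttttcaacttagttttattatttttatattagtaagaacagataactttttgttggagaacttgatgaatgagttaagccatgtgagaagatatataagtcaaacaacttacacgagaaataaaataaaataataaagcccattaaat
SAUR59 (AT3G60690, chr3:22434614-22434863, plus strand): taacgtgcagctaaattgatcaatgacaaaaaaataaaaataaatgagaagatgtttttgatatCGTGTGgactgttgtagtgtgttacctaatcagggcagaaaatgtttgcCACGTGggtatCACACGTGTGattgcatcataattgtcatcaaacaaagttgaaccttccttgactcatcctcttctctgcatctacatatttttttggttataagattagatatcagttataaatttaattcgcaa

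In SAUR66 the letters TGTCTC began at positions -170 and -111 from the gene start, and in AT1G29510 at -93. The SAUR59 window held CACGTG at -137 and -124 and CGTGTG at -186, -126 and -122, and the matches from -126 to -122 overlap each other. The windows of SAUR76, SAUR4 and SAUR5 held none of the searched letters. TGTCTC or TGTCGG was found in 8 of the 52 members (15.4%), against 14.7% of 27443 windows of protein-coding genes. It was present in 3 of the 13 members that rose with IAA (SAUR66, AT1G29510 and SAUR63) and in 0 of the 12 that fell. CACGTG was found in 1 of the 52 members (1.92%), against 6.49% of the windows of protein-coding genes. CGTGTG was found in 2 members (3.85%), against 5.37%, and CGTGCG in 1 member (1.92%), against 1.57%. A match of letters is a description and not a bound site.

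Of the 52 members, 46 had at least 1 count in some library and 21 had counts in all 18. SAUR12, SAUR13, SAUR22, SAUR30, SAUR42 and SAUR57 had no count in any library. Gene counts per library lay between 11225390 and 36431707 (101 bp) or 11764200 and 15647439 (36 bp), of which the members together took 0.0171% to 0.0311%. Levels are given in CPM, counts per 1000000 gene counts after scaling between libraries. A count of 0 allows a level of up to 0.0823 to 0.267 CPM, that of 3 counts, depending on the library, and this limit covers counting error only. A low-count filter let 30 members be tested at 101 bp and 20 at 36 bp. The 22 members not tested at 101 bp had at most 13 counts in a library of that length, and at most 0.901 CPM.

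A few members carried most of the family's transcripts. In mock-treated Col-0, SAUR55 (AT5G50760) had the highest level per kb of exon, 80.8 CPM per kb, followed by SAUR32 with 42.9, SAUR78 with 33.2, SAUR36 with 13.5 and SAUR59 with 9.66 CPM per kb. SAUR8, SAUR72, SAUR4, SAUR50, SAUR5 and SAUR69 lay close together, between 9.05 and 7.45 CPM per kb. In CPM not divided by length, SAUR55, SAUR78 and SAUR32 together made up 54.5% to 66.6% of the summed level of all members across the 6 groups at 101 bp. That sum averaged 302 ± 18.8 CPM with BL, 221 ± 6.05 CPM with IAA and 283 ± 21.5 CPM with IAA+BL, against 269 ± 13.6 CPM in mock (SD, n = 2 each). It was 245 ± 0.0855 CPM in bri1-116;bzr1-1D and 192 ± 7.47 CPM in bri1-116 (SD, n = 2 each). At 36 bp it was 201 ± 7.27 CPM in dwf4 given BL and 184 ± 21.6 CPM in dwf4, against 246 ± 3.69 CPM in WT (SD, n = 2 each).

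Members sit partly in tandem copies that share sequence. By the RefSeq annotation 32 members lie in 8 clusters of neighbouring starts less than 20 kb apart, and 20 lie alone. The coding sequences of SAUR19 to SAUR24 on chromosome 5 are 87.7% to 95.2% identical over 15 pairs. In that cluster SAUR22 had no count in any library and SAUR19, SAUR20 and SAUR23 had at most 0.120 CPM, while SAUR24 reached 2.63 CPM. In the cluster of 8 genes on chromosome 1 from SAUR61 to AT1G29510, coding identity ranged from 45.4% to 89.3%. Windows of 101 bases were found once in the genome for 78.7% of AT1G29510, 81.3% of SAUR63, 91.6% of SAUR62 and 88.6% of SAUR75, and for the whole of every other member. Windows of 36 bases were found once for 57.7% of AT1G29510 and 66.7% of SAUR19. Reads from the repeated stretches cannot be placed, so the levels of these genes are uncertain, more so at 36 bp. SAUR6 overlaps AT2G21200 on the same strand, and SAUR8, SAUR13, SAUR61, SAUR63 and SAUR64 overlap a gene on the other strand, from which they cannot be told apart where strand was not used in counting.

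**Figure D1:**
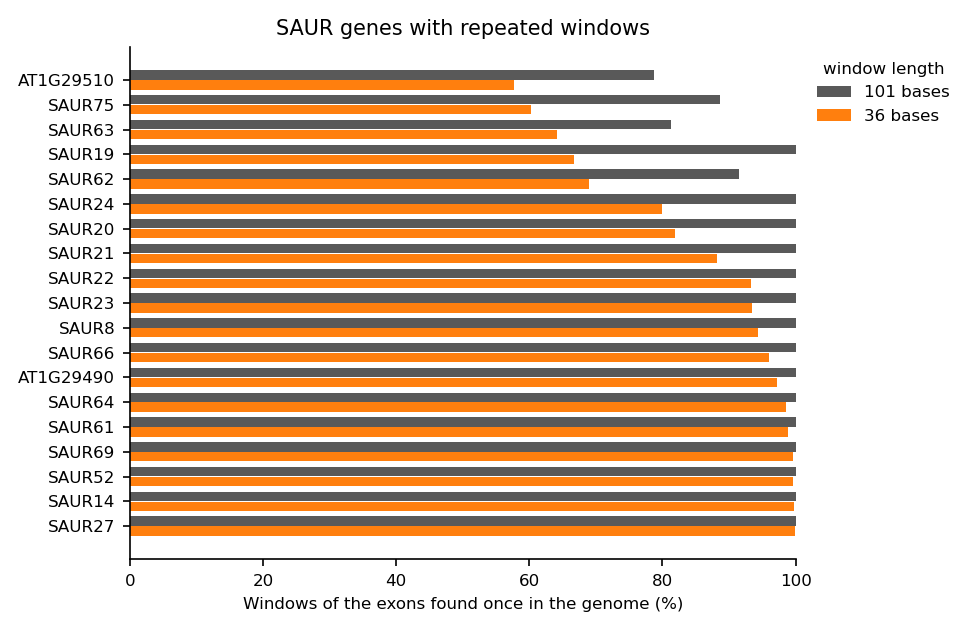
Share of the windows of each gene's exons that occur once in the TAIR10.1 assembly, in percent, for windows of 101 bases (grey) and 36 bases (orange), for the SAUR members with any repeated window. At 36 bases the share was 57.7% for AT1G29510 and 79.9% for SAUR24, against 78.7% and 100% at 101 bases.

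The root section was checked on marker genes. All 10 root markers, among them WOX5, SHR and PYK10, had counts in every library. Their summed level also differed between groups. It was 6651 to 8117 CPM with BL, 7515 to 7983 CPM with IAA and 6029 to 6926 CPM with IAA+BL, against 8349 to 8476 CPM in mock. At 36 bp it was 6358 to 6933 CPM in dwf4 given BL and 8173 to 8367 CPM in dwf4, against 9443 to 10064 CPM in WT. The part of these root marker differences in the SAUR results was not tested. The summed level of 10 shoot photosynthesis markers differed between groups and was 32.8 to 48.7 CPM with BL, 11.5 to 15.6 CPM with IAA and 19.5 to 22.4 CPM with IAA+BL, against 32.2 to 35.8 CPM in mock. It was 105 to 113 CPM in bri1-116;bzr1-1D and 43.5 to 49.4 CPM in bri1-116. At 36 bp it was 45.4 to 49.7 CPM in dwf4 given BL and 33.4 to 38.5 CPM in dwf4, against 25.9 to 29.5 CPM in WT. Between 5 and 9 of these 10 markers had counts in both libraries of a group, and their part in the SAUR results was not tested. BRI1 averaged 108 ± 6.15 CPM in bri1-116;bzr1-1D and 139 ± 4.66 CPM in bri1-116, against 122 ± 10.7 CPM in mock (SD, n = 2 each). BZR1 averaged 26.9 ± 0.993 CPM in bri1-116;bzr1-1D, 27.7 ± 0.00905 CPM in bri1-116 and 26.8 ± 0.854 CPM in mock (SD, n = 2 each). DWF4 averaged 48.1 ± 0.626 CPM in the libraries labelled dwf4, against 50.8 ± 1.51 CPM in WT (SD, n = 2 each). Counts per gene do not show changed bases or cut transcripts, so these levels check none of the genotype labels.

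With BL alone, 6 of the 30 tested members rose and none fell at an adjusted p under 0.05, where 13.0% of all tested genes were called, 6.37% higher and 6.59% lower. Every adjusted p-value given here comes from the quasi-likelihood test of edgeR, adjusted by Benjamini-Hochberg over all tested genes. In every direct comparison of groups, the libraries of all called members did not overlap. Absence of overlap is therefore given as a description and adds no support to a call. Its share over all tested genes was not worked out. The changes were small for the abundant members. SAUR78, which in Arabidopsis can interact with ethylene receptors, had 56.6 and 58.7 CPM with BL, against 38.7 and 41.4 CPM in mock, a 1.43-fold rise (log2 0.52, SE 0.07, adjusted p = 0.000295). SAUR32, studied for its part in apical hook growth, had 50.2 and 57.2 CPM with BL, against 40.2 and 36.7 CPM in mock, a 1.39-fold rise (log2 0.47, SE 0.08, adjusted p = 0.0011). For both genes the BL libraries lay above the mock libraries, and the calls held when any 1 of the 4 libraries was left out.

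The other BL calls rested on fewer counts or smaller margins. SAUR5 had 7.11 and 6.33 CPM with BL, against 4.64 and 4.76 CPM in mock (log2 0.53, SE 0.15, adjusted p = 0.0247). SAUR66 had 0.585 and 1.13 CPM with BL, against 0.169 and 0.238 CPM in mock (log2 1.88, SE 0.49, adjusted p = 0.0174). AT1G29510 had 0.585 and 0.780 CPM with BL, against 0.169 and 0.170 CPM in mock (log2 1.91, SE 0.57, adjusted p = 0.0366). SAUR66 and AT1G29510 had only 11 and 9 counts over the 2 mock libraries. Both passed the low-count filter through hormone-treated groups in which they were higher, BL among them. The count of rises with BL is therefore partly set by the filter. SAUR66 and AT1G29510 belong to the SAUR63 subfamily, whose members promote the elongation of hypocotyls and stamen filaments in Arabidopsis. SAUR16, linked to light-driven cotyledon opening, had 1.04 and 1.04 CPM with BL, against 0.464 and 0.442 CPM in mock (log2 1.19, SE 0.38, adjusted p = 0.0486). The groups did not overlap for any of these 4 members. Each of the 4 calls was nevertheless lost when single libraries were left out, with an adjusted p of 0.0879 to 0.179 for SAUR5 without either mock library or BL replicate 1, 0.0578 to 0.126 for SAUR66 without either mock library or BL replicate 2, 0.0799 to 0.137 for AT1G29510 and 0.130 to 0.176 for SAUR16 without any 1 of the 4. The median log2 fold change was 0.00 over the 30 members and 0.26 with 3 members that had 0 counts with BL set to the level of 3 counts, beside 0.00 over all tested genes.

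IAA changed most tested members and in both directions. Of 30 tested members, 13 rose and 12 fell, where 59.3% of all tested genes were called, 29.9% higher and 29.3% lower, so a large share of called members is read against a large background. The median log2 fold change was 0.48 over the members and 0.00 over all tested genes. SAUR63, AT1G29490, SAUR54, SAUR15, SAUR65 and SAUR24 had 1 to 5 counts over the 2 mock libraries. AT1G29510, SAUR21 and SAUR66 had 9 to 11 counts there. All of these members passed the low-count filter through other groups in which they were higher. The counts of rises against mock and the median of the members are therefore partly set by the filter.

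The largest gain in level with IAA was that of SAUR76, which like SAUR77 and SAUR78 can interact with ethylene receptors in Arabidopsis. SAUR76 had 21.0 and 22.7 CPM with IAA, against 2.82 and 2.28 CPM in mock, an 8.58-fold rise (log2 3.10, SE 0.14, adjusted p = 1.31e-11). SAUR77 had 4.97 and 5.42 CPM with IAA, against 0.590 and 0.340 CPM in mock, an 11.2-fold rise (log2 3.49, SE 0.25, adjusted p = 3.74e-09). In both genes the IAA libraries lay far above the mock libraries. SAUR78, the third of the group, moved the other way, with 31.0 and 32.5 CPM with IAA, against 38.7 and 41.4 CPM in mock (log2 -0.34, SE 0.08, adjusted p = 0.000991).

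The cluster of the SAUR63 subfamily on chromosome 1 rose in its tested members other than SAUR65, which had 0.279 and 0.120 CPM with IAA, against 0.0843 and 0.0680 CPM in mock. SAUR66 had 3.77 and 3.25 CPM with IAA, against 0.169 and 0.238 CPM in mock, a 16.8-fold rise (log2 4.07, SE 0.33, adjusted p = 1.71e-08). AT1G29510 had 1.93 and 1.02 CPM with IAA, against 0.169 and 0.170 CPM in mock (log2 3.19, SE 0.43, adjusted p = 8.10e-06). SAUR63 itself had 18 counts in the IAA libraries, against 1 count in the mock libraries, a ratio of 18.2 with a 95% counting interval of 2.88 to 760. AT1G29490 had 12 counts with IAA, against 1 in mock, a ratio of 12.2 with an interval of 1.80 to 520, and its call was lost without IAA replicate 1 (adjusted p = 0.553) and without mock replicate 2 (adjusted p = 0.143). In the SAUR19 subfamily, whose members bind PP2C phosphatases, SAUR24 had 1.95 and 1.32 CPM with IAA, against 0.0843 and 0.102 CPM in mock, a 17.3-fold rise (log2 4.11, SE 0.46, adjusted p = 2.29e-06). SAUR21 of the same cluster had 0.418 and 0.301 CPM with IAA, against 0.253 and 0.136 CPM in mock, which did not pass the test.

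Other members rose by less. SAUR52 had 8.62 and 7.22 CPM with IAA, against 5.44 and 5.23 CPM in mock (log2 0.60, SE 0.14, adjusted p = 0.00177). Its neighbour SAUR51 had 6.56 and 5.84 CPM with IAA, against 4.89 and 3.98 CPM in mock (log2 0.51, SE 0.15, adjusted p = 0.00802). SAUR41, which promotes cell expansion when overproduced in Arabidopsis, had 3.29 and 2.53 CPM with IAA, against 2.11 and 2.28 CPM in mock (log2 0.45, SE 0.18, adjusted p = 0.0456). SAUR32 had 42.5 and 45.6 CPM with IAA, against 40.2 and 36.7 CPM in mock (log2 0.19, SE 0.08, adjusted p = 0.0468). The IAA and mock libraries did not overlap in these genes, but single libraries carried the calls. Without IAA replicate 1 the adjusted p was 0.0699 for SAUR52, 0.121 for SAUR51, 0.549 for SAUR41 and 0.0569 for SAUR32, and without mock replicate 2 it was 0.119 for SAUR51, 0.0984 for SAUR41 and 0.312 for SAUR32. SAUR41 also missed the threshold without mock replicate 1 (adjusted p = 0.167), SAUR32 without IAA replicate 2 (adjusted p = 0.212), and both with DESeq2, with libraries scaled by their totals alone and with all 18 libraries in the fit. SAUR9 rose as well, with 1.28 and 1.14 CPM with IAA, against 0.337 and 0.578 CPM in mock. SAUR54 had 24 counts with IAA, against 2 in mock, and lost its call without IAA replicate 1 (adjusted p = 0.214).

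Among the members that fell with IAA, the steepest falls were those of SAUR5 and SAUR4, 2 adjacent genes on chromosome 4 whose upstream windows are printed above. SAUR5 had 0.865 and 0.722 CPM with IAA, against 4.64 and 4.76 CPM in mock (log2 -2.52, SE 0.20, adjusted p = 1.50e-08). SAUR4 had 1.06 and 1.14 CPM with IAA, against 5.69 and 6.12 CPM in mock (log2 -2.44, SE 0.23, adjusted p = 1.00e-07). For both, mock levels were over 5 times the IAA levels. SAUR36, a gene linked to leaf senescence in Arabidopsis, had 3.74 and 2.29 CPM with IAA, against 18.2 and 13.6 CPM in mock (log2 -2.28, SE 0.18, adjusted p = 1.38e-08). SAUR6 had 0.363 and 0.481 CPM with IAA, against 2.06 and 1.46 CPM in mock (log2 -2.10, SE 0.37, adjusted p = 0.000124), and shares its strand and part of its length with AT2G21200.

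SAUR59, SAUR72, SAUR55 and SAUR8 fell by less. SAUR59 had 5.41 and 5.42 CPM with IAA, against 12.2 and 10.8 CPM in mock (log2 -1.08, SE 0.13, adjusted p = 1.75e-06). SAUR72, of the SAUR41 subfamily, had 3.82 and 4.15 CPM with IAA, against 8.98 and 7.75 CPM in mock (log2 -1.08, SE 0.17, adjusted p = 3.41e-05). SAUR55, the most abundant member, had 58.3 and 48.4 CPM with IAA, against 99.3 and 90.3 CPM in mock (log2 -0.82, SE 0.09, adjusted p = 5.97e-07). SAUR8 had 4.91 and 4.81 CPM with IAA, against 8.22 and 7.95 CPM in mock (log2 -0.73, SE 0.13, adjusted p = 0.000151). All 4 genes kept these calls when any library was left out, and their IAA libraries lay below the mock libraries. SAUR53, SAUR69 and SAUR50 also fell, by 0.65, 0.63 and 0.43 on the log2 scale. Without IAA replicate 1 none of these 3 passed, with an adjusted p of 0.0796 for SAUR53, 0.254 for SAUR69 and 0.0538 for SAUR50. SAUR50 was lost also without IAA replicate 2 (adjusted p = 0.136) and without mock replicate 1 (adjusted p = 0.159). Without IAA replicate 1, 16 members were called in all, 7 higher and 9 lower. The shoot markers, as given above, were lower with IAA than in mock in each library, and their part in these falls was not tested.

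**Figure D2:**
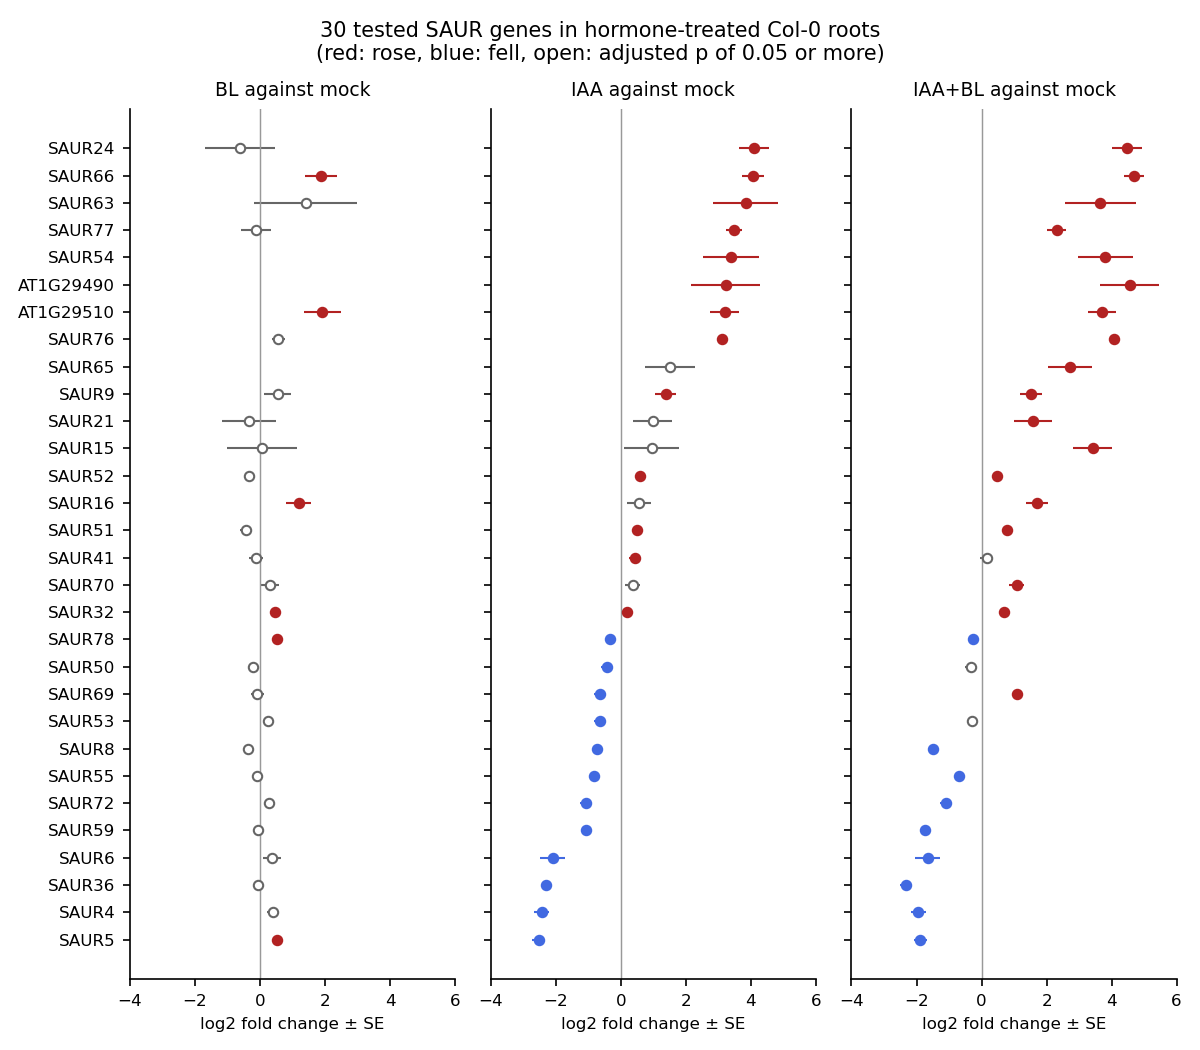
Log2 fold change with its standard error (edgeR) of the 30 tested SAUR members for BL, IAA and IAA+BL against mock, ordered by the IAA change, from 2 libraries a group. Red points rose, blue points fell, open points did not pass an adjusted p of 0.05, and SAUR54, SAUR65 and AT1G29490 have no point for BL because they had 0 counts there; with IAA the values run from -2.52 for SAUR5 to 4.11 for SAUR24.

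Set side by side, the BL and IAA calls fell into 6 kinds. The 2 comparisons share the mock libraries, so their values are not independent. SAUR32, SAUR66 and AT1G29510 rose with each hormone. SAUR5 and SAUR78 rose with BL and fell with IAA. SAUR16 rose with BL and did not pass with IAA, where it had 0.670 and 0.662 CPM. A further 10 members rose with IAA and 10 fell with IAA without a BL call, and SAUR15, SAUR21, SAUR65 and SAUR70 were called in neither. A missing call does not show that a member did not respond. SAUR76 had 3.60 and 3.99 CPM with BL, both above its mock libraries, at an adjusted p of 0.081. SAUR4 had 7.88 and 7.63 CPM with BL, above its mock libraries too, at an adjusted p of 0.148.

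With both hormones, 18 of 30 members rose and 9 fell against mock, where 52.0% of all tested genes were called, 26.0% higher and 26.1% lower. The median log2 fold change was 0.93 over the members and 0.00 over all tested genes. The same filter bears on this median and on the count of rises. SAUR76 reached 38.0 and 47.6 CPM with IAA+BL, against 2.82 and 2.28 CPM in mock, a 16.8-fold rise (log2 4.07, SE 0.14, adjusted p = 2.91e-13). SAUR66 reached 5.14 and 5.96 CPM with IAA+BL, against 0.169 and 0.238 CPM in mock, a 25.9-fold rise (log2 4.69, SE 0.31, adjusted p = 1.96e-09). SAUR69 had 13.6 and 15.3 CPM with IAA+BL, against 6.91 and 6.56 CPM in mock (log2 1.09, SE 0.16, adjusted p = 2.56e-05). SAUR70, the neighbour of SAUR76, had 3.46 and 6.44 CPM with IAA+BL, against 2.19 and 2.28 CPM in mock (log2 1.08, SE 0.23, adjusted p = 0.000938). SAUR51 had 7.01 and 8.17 CPM with IAA+BL, against 4.89 and 3.98 CPM in mock (log2 0.77, SE 0.15, adjusted p = 0.000509). All these libraries lay above both mock libraries.

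Members called with both hormones and with neither alone were SAUR15, SAUR21, SAUR65 and SAUR70. SAUR15, SAUR21 and SAUR65 passed the low-count filter through the IAA+BL libraries, the 101 bp group in which they were highest. Their rises with IAA+BL are therefore partly set by the filter. SAUR21 and SAUR65 were not called against mock with DESeq2. SAUR15, the gene first known as SAUR-AC1, had 0.683 and 0.623 CPM with IAA+BL, against 0.0421 and 0.0680 CPM in mock, which is 24 counts against 3 and a ratio of 11.7 with a 95% counting interval of 3.55 to 60.6. SAUR65 had 0.455 and 0.623 CPM with IAA+BL, against 0.0843 and 0.0680 CPM in mock (log2 2.71, SE 0.68, adjusted p = 0.00336). SAUR21 had 0.592 and 0.554 CPM with IAA+BL, against 0.253 and 0.136 CPM in mock, and its call was lost without mock replicate 2 (adjusted p = 0.211) or either IAA+BL library (adjusted p = 0.0762 and 0.159). Whether these members differ from the others in needing both hormones was tested only by the interaction given below, which they did not pass.

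The falls persisted with both hormones in 9 members. SAUR36 had 2.87 and 3.53 CPM with IAA+BL, against 18.2 and 13.6 CPM in mock (log2 -2.32, SE 0.20, adjusted p = 3.98e-08). SAUR4 had 1.05 and 2.22 CPM with IAA+BL, against 5.69 and 6.12 CPM in mock (log2 -1.95, SE 0.23, adjusted p = 2.18e-06). SAUR5 had 1.18 and 1.39 CPM with IAA+BL, against 4.64 and 4.76 CPM in mock (log2 -1.89, SE 0.20, adjusted p = 5.98e-07). SAUR59 had 2.96 and 4.02 CPM with IAA+BL, against 12.2 and 10.8 CPM in mock (log2 -1.75, SE 0.15, adjusted p = 4.55e-08). SAUR8 had 2.37 and 3.53 CPM with IAA+BL, against 8.22 and 7.95 CPM in mock (log2 -1.50, SE 0.16, adjusted p = 4.37e-07). SAUR55, SAUR6, SAUR72 and SAUR78 were the others, and all 9 lay below both mock libraries in both IAA+BL libraries. SAUR78 was lost without mock replicate 2 (adjusted p = 0.115) or IAA+BL replicate 1 (adjusted p = 0.298).

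**Figure D3:**
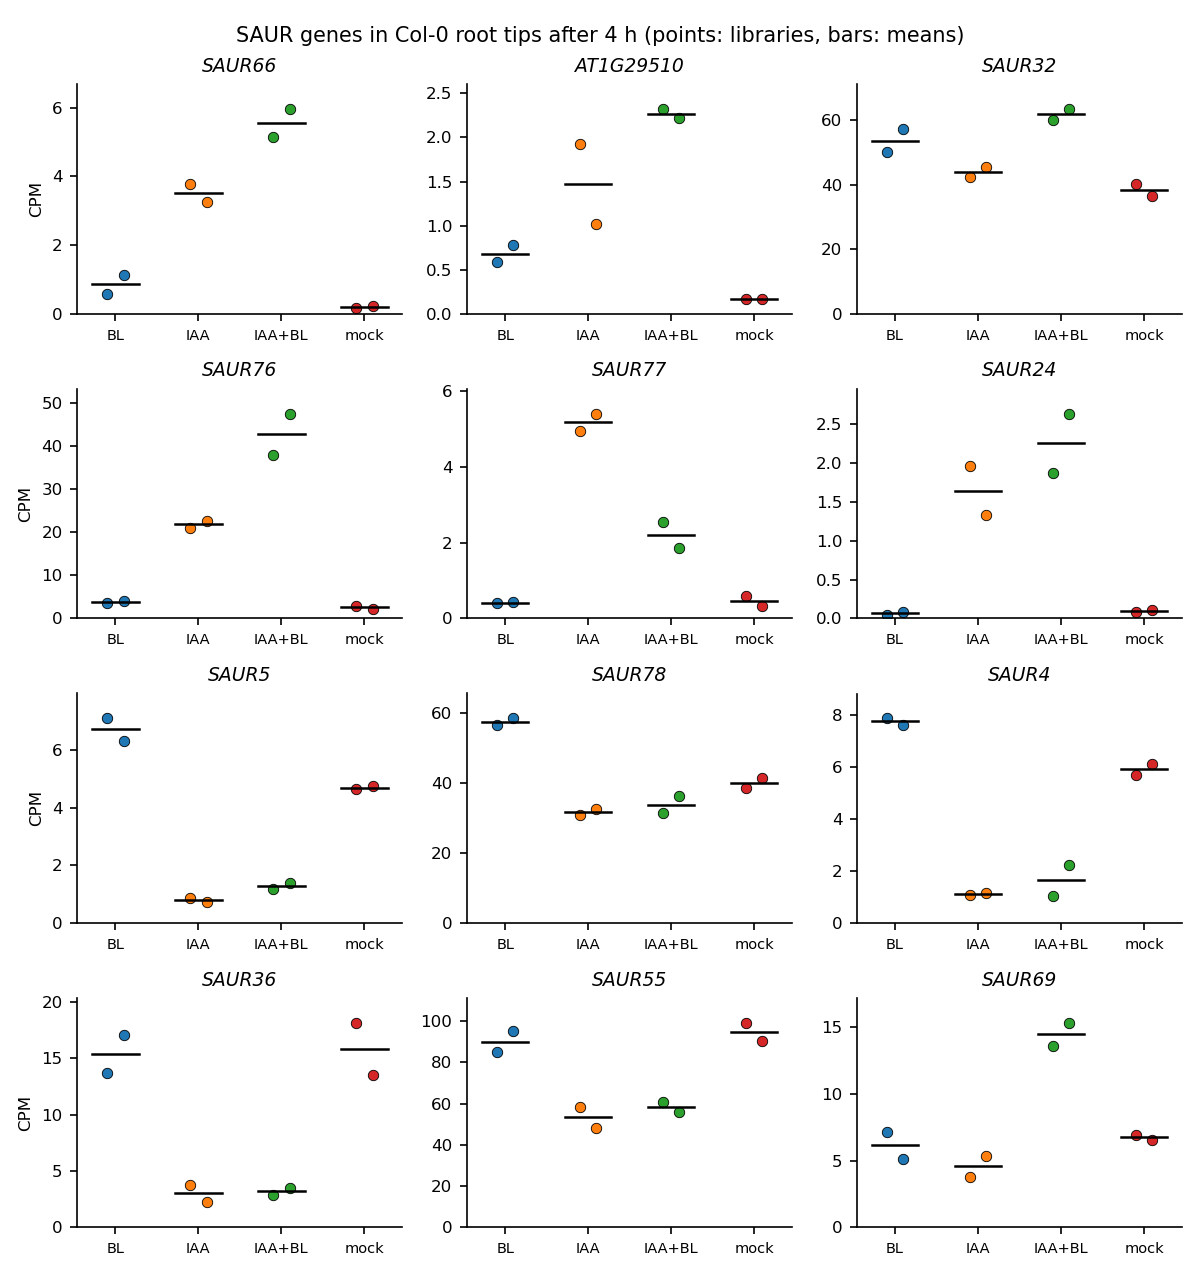
Level in CPM of 12 SAUR members in each Col-0 library (points) with the group mean (bar) for BL, IAA, IAA+BL and mock, at 101 bp and 4 h. SAUR76 stood at 38.0 and 47.6 CPM with IAA+BL, against 2.82 and 2.28 CPM in mock, while SAUR5 stood at 0.865 and 0.722 CPM with IAA, against 4.64 and 4.76 CPM in mock.

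BL added to IAA changed fewer members than IAA itself. Against IAA alone, 6 members rose and 3 fell with IAA+BL, where 10.5% of all tested genes were called, 5.4% higher and 5.13% lower. SAUR69 had 13.6 and 15.3 CPM with IAA+BL, against 3.77 and 5.36 CPM with IAA, a 3.30-fold rise (log2 1.72, SE 0.18, adjusted p = 8.25e-06). SAUR76 had 38.0 and 47.6 CPM with IAA+BL, against 21.0 and 22.7 CPM with IAA, a 1.96-fold rise (log2 0.97, SE 0.10, adjusted p = 9.91e-06). SAUR32 had 60.2 and 63.5 CPM with IAA+BL, against 42.5 and 45.6 CPM with IAA (log2 0.49, SE 0.08, adjusted p = 0.000533). SAUR77 did the opposite and had 2.55 and 1.87 CPM with IAA+BL, against 4.97 and 5.42 CPM with IAA (log2 -1.18, SE 0.20, adjusted p = 0.000906). These 4 calls held without any 1 library, and in each gene the groups did not overlap.

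SAUR15, SAUR16 and SAUR66 also rose and SAUR8 and SAUR59 fell in that comparison, each with a call that single libraries ended. SAUR66 had 5.14 and 5.96 CPM with IAA+BL, against 3.77 and 3.25 CPM with IAA (log2 0.63, SE 0.19, adjusted p = 0.0473), and lost its call without any 1 of the 4 libraries (adjusted p = 0.0833 to 0.235). SAUR8 had 2.37 and 3.53 CPM with IAA+BL, against 4.91 and 4.81 CPM with IAA (log2 -0.77, SE 0.17, adjusted p = 0.00684), lost without replicate 1 of IAA or of IAA+BL (adjusted p = 0.0693 and 0.186). SAUR59 had 2.96 and 4.02 CPM with IAA+BL, against 5.41 and 5.42 CPM with IAA (log2 -0.67, SE 0.17, adjusted p = 0.0171), lost without either IAA library or IAA+BL replicate 1 (adjusted p = 0.0579 to 0.258). SAUR15 had an adjusted p of 0.0664 to 0.122 without replicate 1 of IAA+BL or IAA, and SAUR16 one of 0.112 to 0.20 without either IAA library or IAA+BL replicate 2, and SAUR16 was not called with DESeq2 either. Without IAA replicate 1 the count of called members was 4.

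IAA added to BL changed most members again. Against BL alone, 16 members rose and 10 fell with IAA+BL, where 56.2% of all tested genes were called, 28.5% higher and 27.8% lower. SAUR76 had 38.0 and 47.6 CPM with IAA+BL, against 3.60 and 3.99 CPM with BL (log2 3.50, SE 0.14, adjusted p = 2.97e-12). SAUR66 had 5.14 and 5.96 CPM with IAA+BL, against 0.585 and 1.13 CPM with BL (log2 2.81, SE 0.28, adjusted p = 1.94e-07). SAUR5 had 1.18 and 1.39 CPM with IAA+BL, against 7.11 and 6.33 CPM with BL (log2 -2.42, SE 0.20, adjusted p = 2.35e-08). SAUR4 had 1.05 and 2.22 CPM with IAA+BL, against 7.88 and 7.63 CPM with BL (log2 -2.35, SE 0.23, adjusted p = 2.46e-07). Against BL libraries with 0 counts, taken as 3 counts over the group, SAUR54 was 6.80-fold, AT1G29490 6.49-fold and SAUR65 5.87-fold higher with IAA+BL. The 95% counting intervals of these ratios began lower, at 5.08, 4.83 and 4.33. All 3 passed the low-count filter through the IAA+BL libraries, so the count of rises against BL is partly set by the filter. The groups did not overlap in any of these genes. SAUR69 had 13.6 and 15.3 CPM with IAA+BL, against 7.16 and 5.11 CPM with BL (log2 1.17, SE 0.18, adjusted p = 2.70e-05). SAUR51 had 7.01 and 8.17 CPM with IAA+BL, against 3.65 and 2.69 CPM with BL (log2 1.19, SE 0.18, adjusted p = 2.37e-05). SAUR36 had 2.87 and 3.53 CPM with IAA+BL, against 13.7 and 17.1 CPM with BL (log2 -2.26, SE 0.21, adjusted p = 9.46e-08). SAUR51 and SAUR69 thus rose and SAUR36 fell without overlap of the groups. SAUR59 had 2.96 and 4.02 CPM with IAA+BL, against 10.6 and 11.3 CPM with BL (log2 -1.68, SE 0.16, adjusted p = 1.42e-07). SAUR72 had 3.50 and 4.36 CPM with IAA+BL, against 9.27 and 11.3 CPM with BL (log2 -1.38, SE 0.19, adjusted p = 7.87e-06). SAUR52 also rose, and lost its call without BL replicate 1 (adjusted p = 0.051).

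The BL response differed between roots with and without IAA in 1 of 30 tested members, where 1.44% of all tested genes were called, 0.606% higher and 0.838% lower. SAUR69 (AT5G10990) was that member. It had 13.6 and 15.3 CPM with IAA+BL, against 3.77 and 5.36 CPM with IAA, but 7.16 and 5.11 CPM with BL, against 6.91 and 6.56 CPM in mock. The difference of the 2 responses was 1.80 on the log2 scale (SE 0.26, adjusted p = 0.00114), and the call held without any 1 library and under every other setting tried. The BL response without IAA was -0.08 (SE 0.19, adjusted p = 0.841).

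In the brassinosteroid mutants at 101 bp, some members were lower in bri1-116 and higher again in the double mutant, but members were called no more often than other genes. In bri1-116 against mock-treated Col-0, 3 members were higher and 7 lower, where 36.1% of all tested genes were called, 16.7% higher and 19.4% lower. In bri1-116;bzr1-1D against bri1-116, 6 were higher and 5 lower, where 40.3% of all tested genes were called, 21.2% higher and 19.1% lower. The called shares of the members, 33.3% and 36.7%, were thus near or below those of all tested genes. The 2 comparisons share the bri1-116 libraries, so opposite moves in them are not independent. In bri1-116;bzr1-1D against mock, 0 were higher and 3 lower, where 16.2% of all tested genes were called, 8.03% higher and 8.17% lower. The median log2 fold change of the members was -0.38 in bri1-116 against mock and 0.15 in bri1-116;bzr1-1D against bri1-116, beside 0.01 and 0.00 over all tested genes.

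SAUR55 had 72.1 and 73.8 CPM in bri1-116;bzr1-1D and 45.3 and 52.9 CPM in bri1-116, against 99.3 and 90.3 CPM in mock. It was lower in bri1-116 than in mock (log2 -0.95, SE 0.09, adjusted p = 4.12e-07) and higher in bri1-116;bzr1-1D than in bri1-116 (log2 0.57, SE 0.09, adjusted p = 0.000148). SAUR72 had 11.9 and 9.98 CPM in bri1-116;bzr1-1D and 5.62 and 3.99 CPM in bri1-116, against 8.98 and 7.75 CPM in mock. Its double mutant level was 2.30-fold that of bri1-116 (SE 0.17 on the log2 scale, adjusted p = 3.80e-05). SAUR32 had 35.6 and 41.0 CPM in bri1-116;bzr1-1D and 25.6 and 28.1 CPM in bri1-116, against 40.2 and 36.7 CPM in mock. SAUR78 had 43.0 and 38.4 CPM in bri1-116;bzr1-1D and 27.5 and 30.2 CPM in bri1-116, against 38.7 and 41.4 CPM in mock. In bri1-116 against mock SAUR32 fell by 0.51 and SAUR78 by 0.47 on the log2 scale. These 4 genes were lower in both bri1-116 libraries than in every mock and bri1-116;bzr1-1D library, and each passed in both comparisons without any 1 library. SAUR16 had 0.843 and 0.360 CPM in bri1-116;bzr1-1D and 0.0764 and 0.141 CPM in bri1-116, against 0.464 and 0.442 CPM in mock, with the call lost without bri1-116 replicate 1 against mock (adjusted p = 0.0887) and without bri1-116;bzr1-1D replicate 1 against bri1-116 (adjusted p = 0.199). SAUR8 was the other member lower in bri1-116 than in mock (log2 -0.35, SE 0.12, adjusted p = 0.0389) and was lost without any 1 library (adjusted p = 0.107 to 0.167). The shoot markers were highest in bri1-116;bzr1-1D, as given above, and their part in these differences was not tested.

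SAUR50, linked to light-driven cotyledon opening, stayed low in both genotypes. It had 4.44 and 4.05 CPM in bri1-116;bzr1-1D and 3.02 and 4.24 CPM in bri1-116, against 7.54 and 6.59 CPM in mock. Against mock it was lower in bri1-116 (log2 -0.95, SE 0.17, adjusted p = 0.00036) and in bri1-116;bzr1-1D (log2 -0.72, SE 0.20, adjusted p = 0.0193). SAUR50, SAUR41 and SAUR55 were the 3 members lower in bri1-116;bzr1-1D than in mock, and each was lost without bri1-116;bzr1-1D replicate 1 (adjusted p = 0.0886, 0.0618 and 0.0709), when 0 members were called. SAUR50 and SAUR55 were lost also without mock replicate 1 (adjusted p = 0.0932 and 0.0694) and without bri1-116;bzr1-1D replicate 2 (adjusted p = 0.131 and 0.0527).

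Other members went the opposite way. SAUR76 had 1.61 and 1.80 CPM in bri1-116;bzr1-1D and 5.00 and 5.76 CPM in bri1-116, against 2.82 and 2.28 CPM in mock. It was higher in bri1-116 than in mock (log2 1.09, SE 0.17, adjusted p = 0.000104) and lower in bri1-116;bzr1-1D than in bri1-116 (log2 -1.67, SE 0.24, adjusted p = 3.50e-05). SAUR52 had 6.13 and 5.58 CPM in bri1-116;bzr1-1D and 9.02 and 7.67 CPM in bri1-116, against 5.44 and 5.23 CPM in mock. SAUR77 had 0.460 and 0.719 CPM in bri1-116;bzr1-1D and 1.18 and 1.13 CPM in bri1-116, against 0.590 and 0.340 CPM in mock. In all 3 genes the bri1-116 libraries lay above the mock and bri1-116;bzr1-1D libraries. The lower level in the double mutant was not called without any 1 of the 4 libraries for SAUR77 (adjusted p = 0.0716 to 0.308), nor without bri1-116 replicate 1 or either double mutant library for SAUR52 (adjusted p = 0.0523 to 0.128). The higher level of SAUR77 in bri1-116 was lost without mock replicate 2 (adjusted p = 0.0664). SAUR51 had 2.99 and 3.42 CPM in bri1-116;bzr1-1D, against 4.93 and 5.48 CPM in bri1-116 (log2 -0.71, SE 0.19, adjusted p = 0.00826), lost without bri1-116;bzr1-1D replicate 1 (adjusted p = 0.0806). SAUR5 had 5.44 and 6.12 CPM in bri1-116;bzr1-1D, against 3.63 and 4.45 CPM in bri1-116 (log2 0.51, SE 0.16, adjusted p = 0.0209), lost without bri1-116 replicate 1 or either double mutant library (adjusted p = 0.0629 to 0.158). SAUR41 was the fifth member lower in bri1-116;bzr1-1D than in bri1-116, with 0.843 and 0.899 CPM in bri1-116;bzr1-1D, against 1.72 and 1.59 CPM in bri1-116, lost without bri1-116 replicate 1 or either double mutant library (adjusted p = 0.0766 to 0.120). Leaving out bri1-116;bzr1-1D replicate 1 left 5 called members in that comparison, and leaving out its replicate 2 or bri1-116 replicate 1 left 7.

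**Figure D4:**
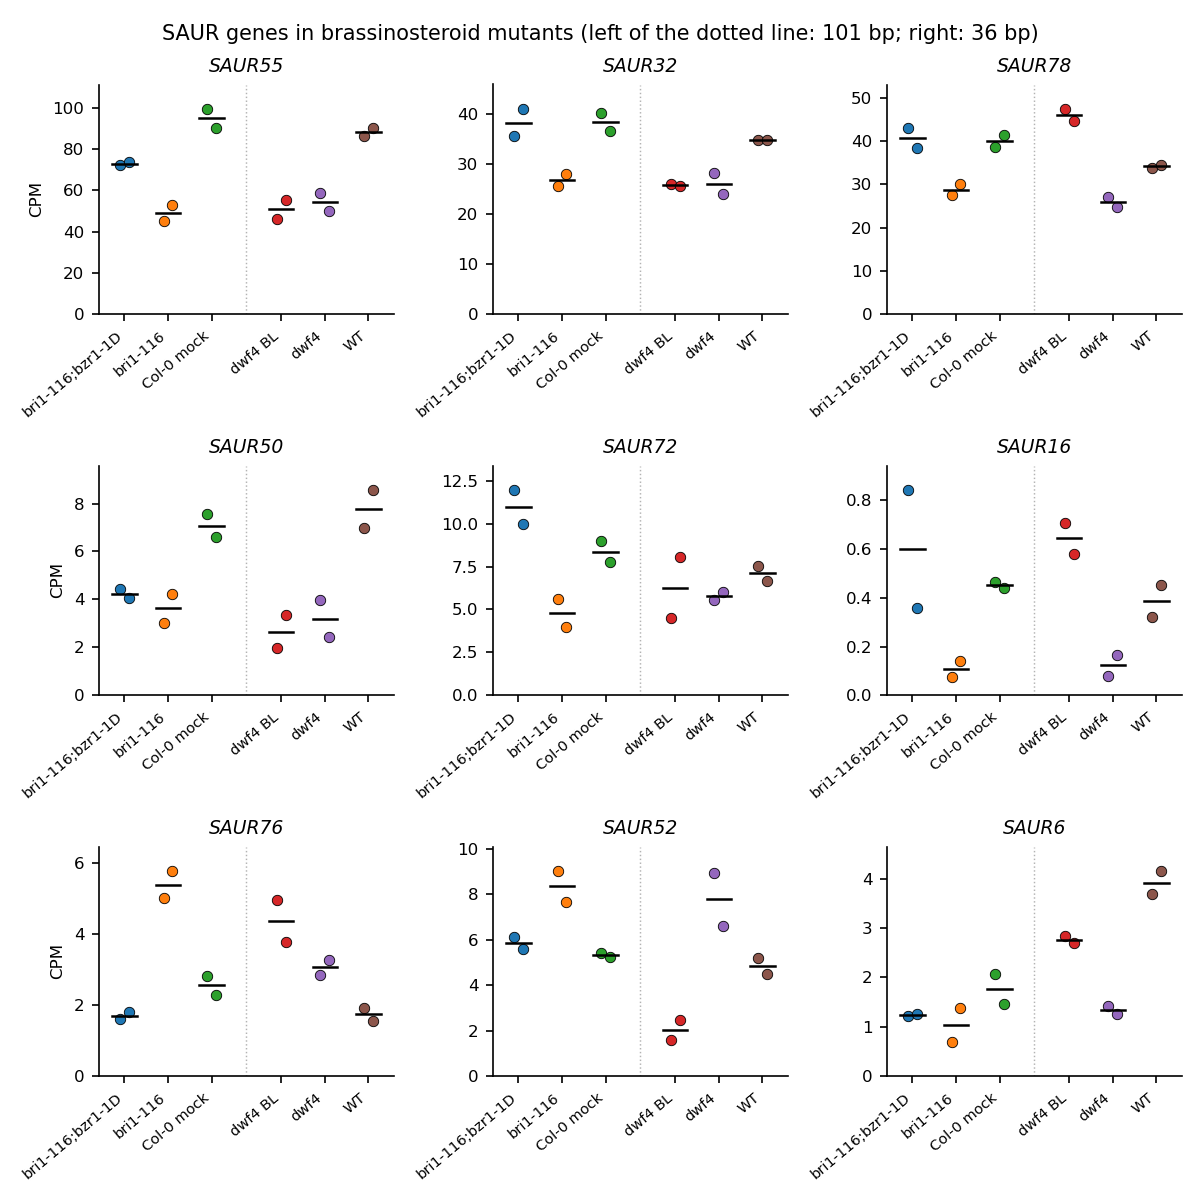
Level in CPM of 9 SAUR members in each library (points) with the group mean (bar), for bri1-116;bzr1-1D, bri1-116 and Col-0 mock at 101 bp and for dwf4 given BL, dwf4 and WT at 36 bp, scaled apart. SAUR55 stood at 45.3 and 52.9 CPM in bri1-116, against 99.3 and 90.3 CPM in mock, and at 58.5 and 49.9 CPM in dwf4, against 86.1 and 90.3 CPM in WT.

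In the libraries labelled dwf4, 1 of the 20 members tested at 36 bp was higher and 5 were lower than in WT, where 12.7% of all tested genes were called, 4.79% higher and 7.93% lower. The median log2 fold change was -0.32 over the members and 0.01 over all tested genes. SAUR55 had 58.5 and 49.9 CPM in dwf4, against 86.1 and 90.3 CPM in WT (log2 -0.70, SE 0.10, adjusted p = 0.00361). SAUR50 had 3.96 and 2.43 CPM in dwf4, against 6.97 and 8.56 CPM in WT (log2 -1.28, SE 0.28, adjusted p = 0.0196). SAUR6 had 1.42 and 1.26 CPM in dwf4, against 3.69 and 4.15 CPM in WT (log2 -1.54, SE 0.24, adjusted p = 0.00446). SAUR32 had 28.3 and 24.0 CPM in dwf4, against 34.8 and 34.9 CPM in WT (log2 -0.41, SE 0.09, adjusted p = 0.0217). SAUR78 had 27.1 and 24.8 CPM in dwf4, against 33.9 and 34.6 CPM in WT (log2 -0.40, SE 0.08, adjusted p = 0.0149). SAUR77, which was higher, had 1.82 and 1.09 CPM in dwf4, against 0.160 and 0.324 CPM in WT (log2 2.50, SE 0.50, adjusted p = 0.0143). It had 7 counts over the 2 WT libraries and passed the low-count filter through the dwf4 groups, in which it was higher. Its rise is therefore partly set by the filter.

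SAUR55, SAUR50, SAUR32 and SAUR78 were thus lower in untreated dwf4 and in untreated bri1-116, each against its own control and at its own read length. In dwf4 the groups did not overlap in any of the 6 genes. None of the 6 calls held without WT replicate 2, with an adjusted p of 0.0578 for SAUR55, 0.0601 for SAUR6, 0.180 for SAUR50, 0.150 for SAUR32, 0.126 for SAUR78 and 0.0859 for SAUR77, and 2, SAUR55 and SAUR6, held without WT replicate 1. SAUR50, SAUR32 and SAUR78 were also lost without dwf4 replicate 2 (adjusted p = 0.0509, 0.0769 and 0.0557) and SAUR77 without dwf4 replicate 1 (adjusted p = 0.0607). The 36 bp fit had 3 residual degrees of freedom, against 6 at 101 bp.

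BL given to dwf4 raised 4 of 20 members and lowered 1, where 13.3% of all tested genes were called, 7.86% higher and 5.45% lower. SAUR78 had 47.4 and 44.7 CPM in dwf4 given BL, against 27.1 and 24.8 CPM in dwf4, a 1.77-fold rise (log2 0.83, SE 0.08, adjusted p = 0.000437), and WT had 33.9 and 34.6 CPM. SAUR52 had 1.57 and 2.47 CPM in dwf4 given BL, against 8.94 and 6.61 CPM in dwf4 (log2 -1.93, SE 0.26, adjusted p = 0.00206), and WT had 5.21 and 4.47 CPM. These calls held without any 1 library. SAUR4 had 6.76 and 9.88 CPM in dwf4 given BL, against 3.80 and 4.27 CPM in dwf4 (log2 1.05, SE 0.21, adjusted p = 0.0151), lost without replicate 2 given BL (adjusted p = 0.0808). SAUR5 had 5.11 and 5.67 CPM in dwf4 given BL, against 3.64 and 2.51 CPM in dwf4 (log2 0.80, SE 0.22, adjusted p = 0.0433). SAUR6 had 2.83 and 2.69 CPM in dwf4 given BL, against 1.42 and 1.26 CPM in dwf4 (log2 1.03, SE 0.25, adjusted p = 0.0298). The groups did not overlap, but SAUR6 was lost without any 1 of the 4 libraries (adjusted p = 0.0772 to 0.117) and SAUR5 without dwf4 replicate 2 or either library given BL (adjusted p = 0.106 to 0.167). Without replicate 2 given BL, 2 members were called.

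SAUR55 and SAUR32, lower in dwf4 than in WT, were not called with BL. SAUR55 had 46.3 and 55.2 CPM in dwf4 given BL, against 58.5 and 49.9 CPM in dwf4 (log2 -0.09, SE 0.10, adjusted p = 0.599). SAUR32 had 25.9 and 25.6 CPM in dwf4 given BL, against 28.3 and 24.0 CPM in dwf4 (log2 -0.02, SE 0.09, adjusted p = 0.910). SAUR50 had 1.97 and 3.34 CPM in dwf4 given BL, against 3.96 and 2.43 CPM in dwf4 (log2 -0.26, SE 0.33, adjusted p = 0.642). In each of the 3 genes the libraries given BL lay among or below those of untreated dwf4.

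The BL response of dwf4 differed from that of Col-0 in 1 of 24 members tested over all 18 libraries, where 0.937% of all tested genes were called, 0.633% higher and 0.304% lower. SAUR52 had 1.57 and 2.47 CPM in dwf4 given BL, against 8.94 and 6.61 CPM in dwf4, while in Col-0 it had 3.78 and 5.03 CPM with BL, against 5.44 and 5.23 CPM in mock. The difference of the 2 responses was -1.61 on the log2 scale (SE 0.32, adjusted p = 0.019). It missed the threshold without mock replicate 2 (adjusted p = 0.0785), BL replicate 2 of Col-0 (adjusted p = 0.0861), dwf4 replicate 1 (adjusted p = 0.0842) or replicate 1 of dwf4 given BL (adjusted p = 0.104). Genotype, read length, and mock against untreated roots all differ between the 2 responses and cannot be told apart.

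Against WT, dwf4 given BL had 5 members higher and 7 lower of 20, where 18.8% of all tested genes were called, 9.63% higher and 9.16% lower. SAUR55 had 46.3 and 55.2 CPM in dwf4 given BL, against 86.1 and 90.3 CPM in WT (log2 -0.80, SE 0.10, adjusted p = 0.00156), which held without any 1 library. SAUR50 had 1.97 and 3.34 CPM in dwf4 given BL, against 6.97 and 8.56 CPM in WT (log2 -1.54, SE 0.28, adjusted p = 0.00744), lost without WT replicate 2 (adjusted p = 0.0858). SAUR76 had 4.95 and 3.78 CPM in dwf4 given BL, against 1.92 and 1.56 CPM in WT (log2 1.33, SE 0.25, adjusted p = 0.00786). SAUR69 had 8.96 and 7.12 CPM in dwf4 given BL, against 4.09 and 5.12 CPM in WT (log2 0.79, SE 0.19, adjusted p = 0.0245). Both were higher without overlap of the groups. SAUR4 had 6.76 and 9.88 CPM in dwf4 given BL, against 5.29 and 4.99 CPM in WT (log2 0.70, SE 0.20, adjusted p = 0.0439). SAUR78 had 47.4 and 44.7 CPM in dwf4 given BL, against 33.9 and 34.6 CPM in WT (log2 0.43, SE 0.08, adjusted p = 0.00705). SAUR52 had 1.57 and 2.47 CPM in dwf4 given BL, against 5.21 and 4.47 CPM in WT (log2 -1.24, SE 0.27, adjusted p = 0.0154). SAUR4 and SAUR78 were thus higher and SAUR52 lower. SAUR36 had 8.73 and 7.41 CPM in dwf4 given BL, against 17.7 and 13.1 CPM in WT (log2 -0.93, SE 0.22, adjusted p = 0.0221). SAUR59 had 8.65 and 7.34 CPM in dwf4 given BL, against 11.1 and 13.0 CPM in WT (log2 -0.60, SE 0.16, adjusted p = 0.0309). SAUR77 was the other member that was higher, and SAUR32 and SAUR41 the others that were lower, all with groups that did not overlap. SAUR77 had 7 counts in WT and passed the low-count filter through the dwf4 groups. SAUR41 had 7 counts in dwf4 given BL, against 35 in WT, and passed through WT. Both calls are therefore partly set by the filter. Apart from SAUR55, each call in this comparison was lost without 1 or more of the 4 libraries, for example SAUR76 without either WT library or replicate 1 given BL (adjusted p = 0.0518 to 0.0890). The count of called members was 2 without WT replicate 1, 1 without WT replicate 2, 4 without replicate 1 given BL and 6 without its replicate 2.

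The known partners of SAUR proteins were measured in the same libraries. Of the 9 clade D PP2C phosphatases, all tested, 2 rose and 1 fell with BL, 3 rose and 3 fell with IAA, and 3 rose and 3 fell with IAA+BL. Over all tested genes 13.0% were called with BL, 59.3% with IAA and 52.0% with IAA+BL, so the phosphatases' shares with IAA and IAA+BL are near the background. AT5G02760 averaged 10.2 ± 0.174 CPM with IAA, against 0.699 ± 0.213 CPM in mock (SD, n = 2 each), a 14.2-fold rise (log2 3.83, SE 0.18, adjusted p = 1.81e-11). It also rose with BL, to 1.55 ± 0.104 CPM (log2 1.13, SE 0.28, adjusted p = 0.0127). AT5G66080 fell under each treatment and averaged 3.61 ± 0.566 CPM with BL, 6.40 ± 0.621 CPM with IAA and 1.37 ± 0.180 CPM with IAA+BL, against 14.9 ± 0.498 CPM in mock (SD, n = 2 each). It averaged 5.43 ± 0.230 CPM in dwf4 given BL and 26.5 ± 1.73 CPM in dwf4, against 14.2 ± 0.143 CPM in WT (SD, n = 2 each). AT5G66080 was higher in bri1-116 than in mock, at 27.2 ± 1.83 CPM (log2 0.87, SE 0.09, adjusted p = 8.98e-07).

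Of 10 tested AHA proton pumps out of 11, 1 rose with BL, 3 rose and 2 fell with IAA, and 2 rose and 2 fell with IAA+BL, which is no more than the 13.0%, 59.3% and 52.0% of all tested genes. AHA2, a main pump of roots, averaged 3298 ± 224 CPM with BL and 2256 ± 199 CPM with IAA, against 2741 ± 50.8 CPM in mock (SD, n = 2 each). It rose with BL (log2 0.27, SE 0.07, adjusted p = 0.013) and fell with IAA (log2 -0.28, SE 0.07, adjusted p = 0.00144). AHA3 averaged 161 ± 8.52 CPM with IAA, against 69.0 ± 0.0134 CPM in mock (SD, n = 2 each). In dwf4 AHA2 averaged 2148 ± 13.9 CPM, against 3890 ± 50.6 CPM in WT (SD, n = 2 each; log2 -0.86, SE 0.05, adjusted p = 0.000101). Of the 6 TIR1/AFB auxin receptors, 0 rose and 4 fell with IAA, beside 59.3% of all tested genes called and 29.3% called lower, and AFB1 averaged 105 ± 0.547 CPM with IAA, against 161 ± 9.52 CPM in mock (SD, n = 2 each).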

How the data were processed

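RNA of root tip sections was sequenced in 18 libraries, made per the labels' protocols with a TruSeq kit. The deposited files hold raw whole-number counts per locus, 1 file per library. The submitters' processing notes list HTSeq, Bowtie, TopHat 1.4.0 and the build TAIR10. No source used here gives the strand setting or the annotation release. The 5 closing lines of each file, for reads assigned to no gene, were left out and make up 5.87% to 12.0% of all counts in a file.

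Counts were compared with edgeR 4.0.16 (R 4.3.3, limma 3.58.1) by its quasi-likelihood F test, with TMM scaling, a low-count filter (filterByExpr on groups, minimum count 10 and total 15), 1 coefficient per group and Benjamini-Hochberg adjustment over all genes tested, at an adjusted p of 0.05. The 12 libraries of 101 bp (20644 genes) and the 6 of 36 bp (19558 genes) were fitted apart, and all 18 (20393 genes) for the difference between BL responses. Fold changes are log2, with a prior count of 0.125, and SE is the fold change divided by the root of F. Ratios of low counts carry 95% exact counting intervals. DESeq2 1.42.0 served as an alternative. Other scalings, no filter, other sets of libraries, a block for replicate numbers and leaving out each library were tried as well. The fitting steps were tested on simulated data.

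Gene names, positions, overlaps, coding identity and upstream windows came from the RefSeq annotation of TAIR10.1, which matched all 52 members. The count files carry no coordinates. SAUR21 is AT5G18030 by its synonym.

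The members and lists were chosen with earlier results of these data known. Values per library are given, per comparison, for up to 5 called members with the largest rise and 5 with the largest fall at a mean of at least 2 CPM. They are also given for members called with both BL and IAA, and for members that fell with IAA. SAUR53 and SAUR50 are given for IAA only by their log2 fold change. Other members named were chosen after their values were seen.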

Additional observations from a re-analysis of the deposited data

Results flagged for a closer look

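Both results below were singled out because a response differed between groups by a test of the difference itself. The BL response of SAUR69 was 1.80 higher on the log2 scale with IAA than without (SE 0.26, edgeR adjusted p = 0.00114), with 13.6 and 15.3 CPM with IAA+BL, against 3.77 and 5.36 CPM with IAA.

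The BL response of SAUR52 was lower in dwf4 than in Col-0, with a difference of -1.61 on the log2 scale (SE 0.32, edgeR adjusted p = 0.019). In dwf4 its response was -1.93 (SE 0.26, edgeR adjusted p = 0.00206) and in Col-0 -0.33 (SE 0.17, edgeR adjusted p = 0.242). Read length and the untreated control differ between the 2 responses as well, and their part was not tested.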

How the results depend on the processing

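Of 1545 refitted member calls 1337 kept direction and call, 208 kept direction but missed the threshold and 0 reversed. Refits in which a member was no longer tested or got no adjusted p are not among them, neither as kept nor as lost. Scaling by library totals covered 142 calls, against 139 with DESeq2 and 136 with only the groups compared. With replicate numbers as a block, counts of called members were 6 for BL, 24 for IAA, 27 for IAA+BL, 8 for IAA+BL against IAA, 27 against BL, 1 for the interaction, 10 for bri1-116, 10 and 3 for bri1-116;bzr1-1D against bri1-116 and mock, 7 for dwf4, 4 and 13 for dwf4 given BL against dwf4 and WT, and 1 for the difference of BL responses. Like counts hide that the block ended the calls of SAUR16 with BL, SAUR41 with IAA, SAUR66 in IAA+BL against IAA, SAUR77 in bri1-116;bzr1-1D against bri1-116, and SAUR5 and SAUR6 in dwf4 given BL against dwf4. DESeq2 did not call 29 of 139 member calls. Deviations of same-numbered libraries correlated at -0.106 to 0.110 over 15 pairs of groups at 101 bp. At 36 bp they correlated at -0.139 to 0.0180 over 3 pairs of groups. No strong shared effect of the replicate number was seen, but these values cannot show whether the samples were paired.

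Counts of called members moved by over 1.5 times in these cases. DESeq2 called 3 with BL against mock, 7 in bri1-116;bzr1-1D against bri1-116, 3 in dwf4 given BL against dwf4 and 7 against WT. Without the low-count filter the counts were 2 for the interaction, 8 for dwf4 given BL against dwf4 and 2 for the difference of BL responses. With only the groups compared in the fit they were 3 for dwf4 given BL against dwf4 and 0 for the difference of BL responses. With all 18 libraries they were 10 for dwf4 against WT and 11 for dwf4 given BL against dwf4. The cause of these shifts was not tested.

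Leaving out 1 library, where a lone library is taken to vary like the other groups, gave 2 to 3 members for BL, 16 to 24 for IAA, 25 to 28 for IAA+BL, 4 to 7 for IAA+BL against IAA, 21 to 27 against BL, 1 to 2 for the interaction, 9 to 10 for bri1-116, 5 to 10 and 0 to 3 for bri1-116;bzr1-1D against bri1-116 and mock, 0 to 5 for dwf4, 2 to 6 and 1 to 6 for dwf4 given BL against dwf4 and WT, and 0 to 2 for the difference of BL responses.

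Over all tested genes, DESeq2 called 1701 with BL against mock (2675 in the main test), 2222 in bri1-116;bzr1-1D against mock (3343), 1617 in dwf4 against WT (2487), 1668 in dwf4 given BL against dwf4 (2602) and 2345 against WT (3674). With only the groups compared, 1577 were called with BL, 1560 in dwf4 given BL against dwf4 and 43 for the difference of BL responses (191). All 18 libraries gave 185 for the interaction (298), 3781 for dwf4 and 3988 for dwf4 given BL against dwf4, and no filter gave 860 for the interaction and 842 for the difference of BL responses. Scaling by library totals alone moved the share of calls that were higher to 69.0% for IAA+BL against IAA (51.3% in the main test), 58.8% for the interaction (41.9%) and 52.2% for dwf4 (37.7%). Members under 2 CPM rest on few counts.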
